A study of Homo sapiens with 6 samples.

Results

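The GATA2 locus and the DNA upstream of it were described from the accessible chromatin peaks that overlap chromosome 3 from 128150000 to 128400000 (hg19). This window of 250 kb holds the GATA2 gene, from 128198265 to 128212030 on the minus strand, and the DNA on its upstream side. Members were taken by position alone, as each peak with at least 1 base in the window. They numbered 36 of the 239763 peaks in both lists, 19 in control cells and 17 in shHMGA1 cells. Positions below are distances from the GATA2 start at 128212030, where upstream lies at higher coordinates and the gene runs towards lower ones.

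The assay was ATAC-seq, whose transposase cuts and tags open DNA. The cells were DAMI, a leukaemic line labelled with the disease state MPN/AML (myeloproliferative neoplasm, acute myeloid leukaemia), grown in RPMI medium with fetal bovine serum. Control cells had received a control lentivirus (TRC in the sample titles) and the others a lentivirus with a short hairpin against HMGA1 (HMGA1 KD in the titles), with 3 samples in each group. The hairpin's sequence, whether the cells were cloned and the time after infection are not stated in the labels. Each group is represented by 1 peak list without values per sample, so differences between lists have no replicate check, no p-value is given, and read depth is unknown. HMGA1 silencing cannot be checked from accessibility, and neither can the identity of the line.

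GATA2 is a zinc finger transcription factor that maintains blood stem and progenitor cells and takes part in early megakaryocyte and mast cell development. It is transcribed from alternative first exons and is controlled by enhancers inside the gene, shortly upstream and far upstream. One intronic enhancer carries an E-box beside a GATA site and in the mouse is needed for blood stem cells to emerge. The far upstream enhancer is known from leukaemias in which a rearrangement of chromosome 3 moves it next to MECOM. HMGA1 is an architectural protein that binds AT-rich DNA in the minor groove, and the design asks how its silencing changes accessible chromatin.

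RefSeq lists 2 start sites for GATA2 and 1 for its antisense neighbour GATA2-AS1 within the gene, and the 250 bases before each are shown because accessible peaks lay at the first start and at like distances inside the gene. They come from GRCh38.p14, a build other than that of the peaks, and were not converted. On that build the second GATA2 start lies 4671 bases inside the gene from the first, and the GATA2-AS1 start 3998 bases inside it. Each runs 5′ to 3′ on the strand of its gene, and capitals mark CANNTG, the E-box.
GATA2, first start, chr3:128493202-128493451, minus strand: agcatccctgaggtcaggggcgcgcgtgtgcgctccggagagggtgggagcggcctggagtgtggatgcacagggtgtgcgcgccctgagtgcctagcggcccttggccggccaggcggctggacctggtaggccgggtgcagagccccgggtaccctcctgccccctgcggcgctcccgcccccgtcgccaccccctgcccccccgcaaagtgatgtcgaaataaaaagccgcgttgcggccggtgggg
GATA2, second start, chr3:128488531-128488780, minus strand: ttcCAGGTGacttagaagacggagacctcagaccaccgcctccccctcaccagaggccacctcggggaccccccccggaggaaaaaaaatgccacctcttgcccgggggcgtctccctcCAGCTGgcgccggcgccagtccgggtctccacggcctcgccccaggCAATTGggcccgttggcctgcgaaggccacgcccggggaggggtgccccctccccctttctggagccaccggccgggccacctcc
GATA2-AS1, chr3:128488953-128489202, plus strand: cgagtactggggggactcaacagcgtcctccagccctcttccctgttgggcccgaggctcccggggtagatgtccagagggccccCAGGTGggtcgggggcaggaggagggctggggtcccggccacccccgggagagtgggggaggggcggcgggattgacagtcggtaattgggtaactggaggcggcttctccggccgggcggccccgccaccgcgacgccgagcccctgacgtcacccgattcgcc

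These stretches are rich in G and C, at 72.8% for the first GATA2 start, 71.2% for the second and 72.4% for GATA2-AS1. The median over 34943 RefSeq promoters of the same length was 58.0% (quartiles 46.4 and 68.0). The second GATA2 start carried 3 E-boxes, GATA2-AS1 carried 1 and the first GATA2 start none; 61.8% of all promoters held at least 1. None of the 3 stretches held the GATA motifs AGATAA (in 9.19% of promoters) or TGATAA (6.67%), the ETS motif CCGGAA (14.5%), the RUNX motif TGTGGT (11%) or the AP-1 motif TGACTCA (4.22%). Both strands were searched. A match or its lack describes these letters only.

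Nearly every accessible site of the GATA2 window was present in both lists. Of the 19 control peaks, 18 overlapped an shHMGA1 peak by at least 1 base, and all 17 shHMGA1 peaks overlapped a control peak. The peaks formed 18 sites, of which 16 had 1 peak in each list, 1 had a pair of control peaks joined into a single shHMGA1 peak, and 1 was control-only. The control-only share was 5.26% (exact 95% interval 0.133 to 26.0), against 24.9% of all control peaks. The shHMGA1-only share was 0 of 17, which allows up to 17.6%, against 14.8% of all shHMGA1 peaks. Both whole-list shares lie inside these limits, which cover counting error only, so a difference from the whole lists was not detectable with so few peaks.

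The window held 17 shHMGA1 peaks for 19 control peaks, a ratio of 0.895 beside 0.886 for the whole lists. They covered 16.9 kb in shHMGA1 and 17.7 kb in control, a ratio of 0.959 beside 0.909 for the whole lists, with mean widths of 996 and 930 bp. Both directions turned when only stronger peaks were kept. With a summit −log10 p above the joined median of 5.24, or with the 56305 most significant peaks of each list, the window held 13 control and 14 shHMGA1 peaks, covering 14.3 and 15.6 kb. Peaks here were wide for their lists. Median width was 821 bp in control and 702 bp in shHMGA1, where the whole lists had 525 and 539 bp. Among 4661 windows of 250 kb on chromosomes 1 to 22 and X with at least 10 control peaks, the median window held 15 control and 13 shHMGA1 peaks. That set was chosen on control peaks alone, which can favour the control count.

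**Figure D1:**
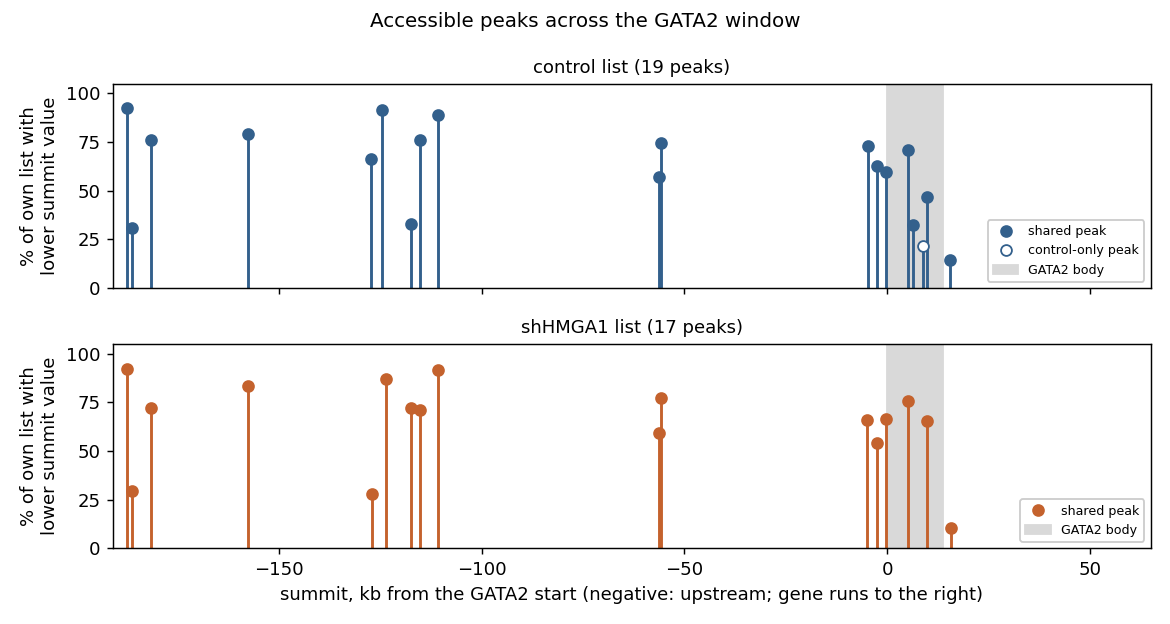
Peak summits of the control list (top, 19 peaks) and the shHMGA1 list (bottom, 17 peaks) by distance from the GATA2 start in kb; the height gives the percentage of peaks in the same list with a lower summit −log10 p, filled points are shared peaks, the open point is the control-only peak and the grey band is the gene body. The same groups of sites recur in both lists, with the highest points far upstream of the GATA2 start, at sites not assigned to a gene.

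Each peak carries a summit value, the −log10 p that the authors' peak caller gave at its highest point, and an area under the significance curve, which grows with width. Heights were ranked only within a list, since they depend on depth. The cut at 5.24 was the exception, as it applied 1 value to both lists. The window's peaks ranged from 4.01 to 11.7 in control, with a median of 6.33 beside 5.25 for the whole list. In shHMGA1 they ranged from 3.83 to 11.5, with a median of 6.80 beside 5.22. In control, 13 of 19 lay above the median of the list, and in shHMGA1 14 of 17. In each list, 2 peaks of the window reached the top 1 of 10 equal parts of the list.

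At the GATA2 start, both lists had 1 peak that spanned the start itself. The control peak ran from 128211663 to 128212742 (1080 bp), from 0.4 kb inside the gene to 0.7 kb upstream, with an area of 1375 and a summit value of 5.83. The shHMGA1 peak ran from 128211497 to 128212744 (1248 bp), with an area of 1813 and a summit value of 6.36. Their upstream ends differed by 2 bp and their summits by 10 bp, while the end inside the gene reached 166 bp further in shHMGA1. The start was therefore accessible in both lists, at middling rank: 59.8% of control peaks and 66.5% of shHMGA1 peaks had lower summit values.

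The widest accessible region of the gene lay inside it. In control it was a peak of 2371 bp from 128206179 to 128208549, 3.5 to 5.9 kb inside the gene (area 4955, summit value 6.85), followed 159 bp further by one of 625 bp from 128205395 to 128206019 (area 447.7, summit value 4.54). In shHMGA1 a single peak of 3134 bp, from 128205405 to 128208538, covered both (area 5161, summit value 7.36). The outer ends of the region differed by no more than 11 bp, so the lists differ in the gap between the control peaks and not in the extent. Such joining was seen in 3.72% of all shHMGA1 peaks, which overlapped 2 or more control peaks. On GRCh38.p14 the second GATA2 start and the GATA2-AS1 start lie 4671 and 3998 bases inside the gene, distances that fall in the range of this region; their hg19 positions were not determined here.

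Further inside the gene, control had 2 neighbouring peaks and the shHMGA1 list 1. The peak at 9.9 kb was present in both lists. It ran from 128201776 to 128202349 in control (574 bp, area 786.6, summit value 5.09) and from 128201755 to 128202456 in shHMGA1 (702 bp, area 1103, summit value 6.26). In control 46.7% of the list had a lower summit value, and in shHMGA1 65.3%. The summits lay 67 bp apart, and the shHMGA1 peak extended 107 bp further towards the gene start. This is the part of the gene in which the intronic enhancer is described, but the enhancer was not annotated here.

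The neighbouring peak at 9.0 kb was the single control-only peak of the window. It ran from 128202728 to 128203329 (602 bp), with an area of 339 and a summit value of 4.23, and 21.5% of the control list ranked lower. The nearest shHMGA1 peak, the one at 9.9 kb, ended 271 bp away. The control-only peak was thus a weak one: with the control list cut into 10 equal parts by summit value, it fell in the third from the bottom, where 48.7% of 12715 peaks had no shHMGA1 partner. The only control peak of the window that ranked lower was shared. It lay beyond the gene's far end, 15.3 to 16.4 kb from the start. That site measured 1114 bp in control (summit value 4.01, area 572.9) and 571 bp in shHMGA1 (3.83, 288.9), the strongest narrowing in the window at a width ratio of 0.513. No site narrowed by 2-fold or more, which 5.39% of all sites with 1 peak in each list did.

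**Figure D2:**
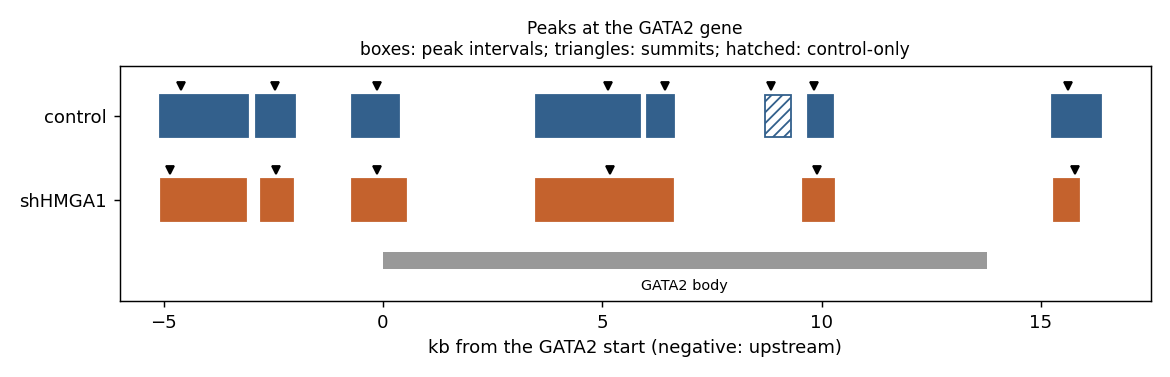
Peak intervals at the GATA2 gene in kb from its start, drawn to scale for the control list (top) and the shHMGA1 list (bottom); triangles mark summits, the hatched box is the control-only peak of 602 bp and the grey bar is the gene body. The control pair near 5 kb is joined in shHMGA1, and the site at the far right measures 1114 bp in control and 571 bp in shHMGA1.

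A pair of peaks followed the start closely on its upstream side in both lists. The nearer, centred 2.4 kb upstream, measured 870 bp in control (area 1498, summit value 6.03) and 718 bp in shHMGA1 (1283, 5.46). The further, centred 4.1 kb upstream, measured 2017 bp in control (3061, 7.08) and 1940 bp in shHMGA1 (2724, 6.32). In the mouse, sites bound by GATA factors shortly upstream of this gene are known to take part in its autoregulation; whether these peaks are their human counterparts was not annotated here. The ends of the 4.1 kb site agreed within 40 bp, and its summits lay 232 bp apart. After it, no peak of either list was found over 50.5 kb, up to 55.6 kb upstream.

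A second pair of peaks stood alone between 2 long peak-free stretches. The peak centred 55.8 kb upstream was narrow and high for its width: 335 bp in control with a summit value of 7.24, and 307 bp in shHMGA1 with 7.60. Its area per base was 3.20 in control and 3.43 in shHMGA1, and its summits differed by 1 bp. Its neighbour at 56.5 kb was lower and wider, 821 bp in control (summit value 5.64) and 540 bp in shHMGA1 (5.79). There the end away from the gene lay 290 bp nearer in shHMGA1, giving a width ratio of 0.658. A further 53.5 kb without a peak separated this pair from the distal group.

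The distal group, set by position alone, held 5 sites, from 110.4 to 127.7 kb upstream, all present in both lists. None of the 5 was assigned to a gene. The first, centred 110.9 kb upstream, was among the 3 most significant peaks of the window in each list. It ran from 128322531 to 128323504 in control (974 bp, area 3433, summit value 10.3) and from 128322436 to 128323415 in shHMGA1 (980 bp, area 3959, summit value 11.4). The summit fell on the same base, 128322823, in both. In control 88.9% of the list ranked lower, and in shHMGA1 91.6%. Published work on the leukaemias with a rearranged chromosome 3 places the far upstream GATA2 enhancer at about this distance from the gene; its exact span was not annotated here.

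The largest area of the window lay in the same group, at the site centred 124.2 kb upstream. It measured 2098 bp in control (area 7760, summit value 11.3) and 2015 bp in shHMGA1 (7066, 9.71), and its ends matched within 44 bp. Its summits lay 974 bp apart, at 128336637 in control and 128335663 in shHMGA1, so the highest point fell in different parts of one wide peak. This was the 1 site of 16 with summits at least 500 bp apart, a distance reached by 1.87% of such sites in the whole lists. Over all 16 sites the median distance between summits was 39 bp, beside 20 bp for the whole lists, and 7 of the 16 exceeded the upper quartile of the whole lists, 54 bp. Summits can lie further apart in wider peaks, and peaks here were wide for their lists. These comparisons were not matched for width, so they do not show that summits moved unusually in this window. The next largest distances were 232 bp at the site 4.1 kb upstream and 173 bp at the site beyond the gene's far end.

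Among sites with 1 peak in each list, the one centred 117.7 kb upstream had the width ratio furthest from 1. The control peak was the narrowest of the window, 182 bp from 128329382 to 128329563 (area 230.5, summit value 4.55). The shHMGA1 peak measured 667 bp from 128329364 to 128330030 (area 707.3, summit value 6.94), a width ratio of 3.66. The summits lay 1 bp apart and the ends towards the gene 18 bp apart, so the added 467 bp lay on the side away from the gene. In control 32.7% of peaks ranked lower, and in shHMGA1 72.1%. It was the 1 site of 16 that was at least 2-fold wider in shHMGA1, a class that made up 3.65% of all sites with 1 peak in each list.

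The other two sites of the group kept most of their extent. The site at 115.4 kb measured 587 bp in control (summit value 7.47) and 681 bp in shHMGA1 (6.80), with summits 16 bp apart. The site at 127.4 kb measured 640 bp in control (6.33) and 523 bp in shHMGA1 (4.37), and it ranked above 66.1% of the control list and 28.1% of the shHMGA1 list. Ranks in lists of unequal length and unknown depth do not measure a change. They show only that the sites at 117.7 and 127.4 kb, about 10 kb apart, stood in opposite order in the lists.

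**Figure D3:**
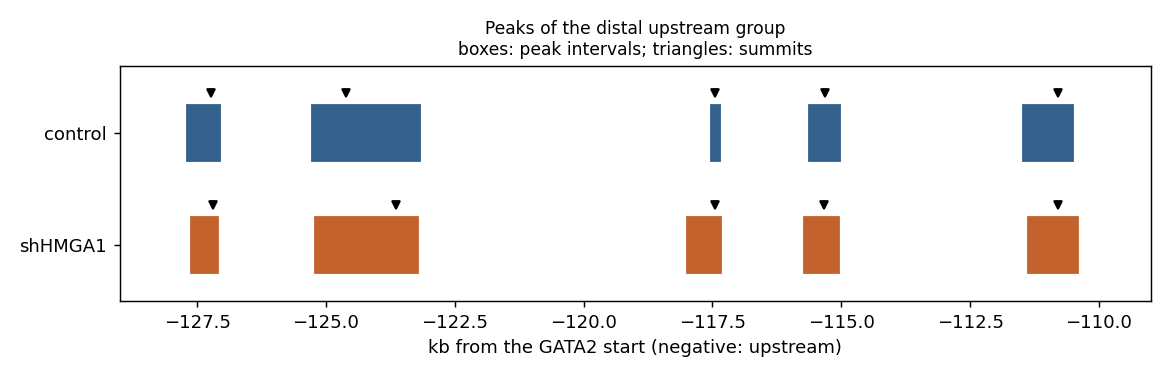
Peak intervals of the distal group in kb upstream of the GATA2 start, drawn to scale for control (top) and shHMGA1 (bottom), with triangles at the summits. All 5 sites appear in both lists; the site at 117.7 kb measures 182 bp in control and 667 bp in shHMGA1, and the summits of the site at 124.2 kb lie 974 bp apart.

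The remaining 4 sites lay in the part of the window furthest upstream of GATA2. RPN1, which encodes a subunit of the oligosaccharyltransferase complex, is the next protein-coding gene upstream of GATA2 in RefSeq (GRCh38.p14), and its hg19 position was not determined here. The site at 157.5 kb stood alone and measured 943 bp in control (summit value 7.89) and 993 bp in shHMGA1 (8.72). The site at 181.7 kb measured 728 and 567 bp (7.49 and 6.95), with summits 1 bp apart. A small site at 186.4 kb measured 256 and 267 bp (4.50 and 4.42). The last, at 187.7 kb, crossed the edge of the window and held the highest summit value of both lists here. It ran from 128399414 to 128400258 in control (845 bp, area 4045, summit value 11.7) and from 128399162 to 128400241 in shHMGA1 (1080 bp, area 4146, summit value 11.5). Gene positions upstream of GATA2 were not annotated on hg19, so none of these sites is assigned to a promoter. Whether any of them, or any site of the distal group, lies at or in RPN1 was not determined here. Neither was which of them belong to GATA2.

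The 5 most significant peaks all lay more than 10 kb upstream of the GATA2 start in both lists. Position is given from GATA2 only, and whether these peaks belong to GATA2 or RPN1 was not determined. In control they were, in order, the sites at 187.7, 124.2, 110.9, 157.5 and 181.7 kb upstream. In shHMGA1 the order was 187.7, 110.9, 124.2, 157.5 and 55.8 kb. The first 4 sites were thus the same in both lists, with the second and the third exchanged. None of the peaks in the gene body or the first 10 kb upstream was among them; the highest of these in control was the peak at 4.1 kb upstream (7.08), and in shHMGA1 the joined peak inside the gene (7.36).

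Over the 16 sites with 1 peak in each list, widths did not lean to either side. The shHMGA1 peak was the wider at 8 sites and the narrower at 8, so 50% were wider in shHMGA1, beside 44.8% of 83581 such sites in the whole lists. The median log2 ratio of shHMGA1 to control width was -0.02 (quartiles -0.28 and 0.21), beside -0.03 (quartiles -0.29 and 0.18) for the whole lists. It ranged from -0.96 at the site beyond the gene's far end to 1.87 at the site 117.7 kb upstream. These sites are neighbours on 1 chromosome and are not replicates.

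**Figure D4:**
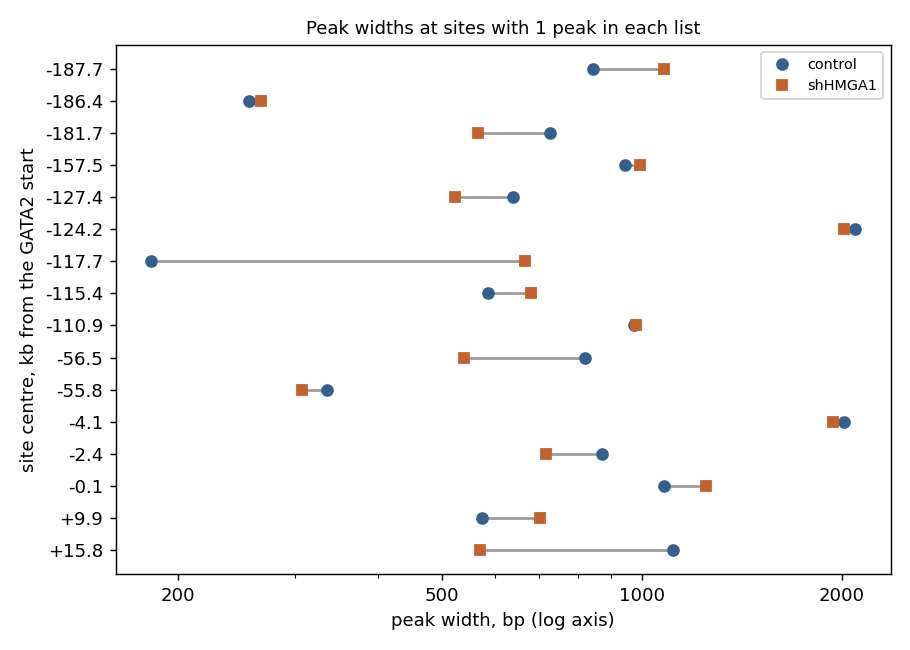
Peak width in bp (log axis) at the 16 sites of the GATA2 window with 1 peak in each list, ordered by position in kb from the GATA2 start; circles are control and squares shHMGA1, 1 list each. Most pairs lie close together, and the sites at 117.7 kb upstream and beyond the gene's far end lie furthest apart.

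The accessible sites were grouped, and the groups fell at the same places in both lists. In control, 1 peak lay beyond the gene's far end, 5 in the gene body, 2 in the first 10 kb upstream and 11 further upstream. In shHMGA1 the counts were 1, 3, 2 and 11, so the 2 fewer peaks of the shHMGA1 list both came from the gene body, by 1 joining and 1 unmatched peak. Covered length in the gene body differed little, 5252 bp in control and 5084 bp in shHMGA1, and further upstream it was 8409 and 8620 bp. No peak of either list lay in 5 intervals of at least 10 kb, which together made up 202 kb of the window. The longest were 53.5, 50.5 and 45.7 kb, the last of them at the downstream edge of the window.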

How the data were processed

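The members and the lists of motifs and sites were chosen with earlier results of these data known. Peaks were called with Genrich on hg19, per the submitters' processing notes; its version and settings, the aligner, the filters on reads and the pooling of the 3 samples per group are not given in the sources used. The lists have no header and were given their group from the group name each carries. The summit value in the deposited lists is a −log10 p without adjustment for multiple testing. The deposited signal is the area under the significance curve. The deposited score, capped at 1000 by the authors' caller, was not used. Depth is unknown, and values per sample were not analysed here.

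Peaks were shared where at least 1 bp overlapped; sites were sets of peaks joined by such overlap. Positions were written counting from 1. Each list was divided into 10 equal parts by summit value. Named sites were those of the gene body and the first 10 kb upstream, the 5 most significant of each list and each unshared peak; the other sites, few in number, are also given. Intervals are exact Clopper-Pearson intervals at 95%, and beside a share of 0 stands the limit that 3 counts give. The pairing code was checked on lists simulated from the 127153 control peaks, with a wrong shared state for 0% of them. Simulated peaks kept their starts and were not split or joined, so this checks the code and not the sharing of real peaks. Promoter bases came from the RefSeq table of GRCh38.p14, in which 1990 of 1990 overlapping pairs on opposite strands were reverse complements. Planned peak counts at partner genes of GATA2 were not run, since no hg19 annotation was used here. Python 3.11.15 was used, with scipy 1.17.1 for intervals, pandas 2.3.3 and numpy 2.4.6 for tables and matplotlib 3.10.9 for figures.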

Additional observations from a re-analysis of the deposited data

How the results depend on the processing

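The number of unshared peaks depended on the rule. A reciprocal overlap of 50% gave 3 control-only peaks (those at 9.0 kb and 117.7 kb and the smaller of the joined pair) and 1 shHMGA1-only peak (at 117.7 kb). A distance of 500 bp gave 0 control-only peaks and a log2 width ratio with a median of 0.06 over 11 pairs, fewer because neighbours then count as partners. A stricter summit value (above 5.24, the joined median) and equal numbers of the 56305 most significant peaks each left 13 control and 14 shHMGA1 peaks, so the window then held more peaks in shHMGA1. Both gave 2 shHMGA1-only peaks (at 9.9 and 117.7 kb, whose control peaks fell under the threshold), 1 control-only peak (at 127.4 kb, likewise) and a covered length of 14.3 kb in control and 15.6 kb in shHMGA1. Covered length was thus the greater in shHMGA1 there, the reverse of the unfiltered lists. The stricter value and the equal numbers gave the same counts and lengths, so they are not separate checks. The gene body with 10 kb on either side held 8 peaks in control (7 shared, 9.25 kb) and 6 in shHMGA1 (6 shared, 8.31 kb), and the log2 width ratio had a median of -0.06 over 5 pairs. Assignment by summit moved none of the counts, covered lengths or the width ratio. Merging within 150 bp could not move them, since no neighbouring peaks of a list lay that close in the window. The control pair joined in shHMGA1 stood 159 bp apart, just beyond that limit. No paired analysis was possible because the lists carry no replicate numbers or sample values, so leaving out a replicate could not be tried either. Unknown depth limits each statement on weak peaks.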

Other observations

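Accessible sites were sparser on both sides of the GATA2 window than inside it. The 250 kb before it, on the downstream side of GATA2, held 5 control peaks, 2 of them unshared, and 4 shHMGA1 peaks, 1 of them unshared. The 250 kb after it, on the upstream side, held 9 peaks in each list, 1 of them unshared in each. Among the 4661 windows of 250 kb with at least 10 control peaks, the control-only share had a median of 24.2% (quartiles 15.4 and 34.6) and the ratio of shHMGA1 to control peaks a median of 0.870 (quartiles 0.75 and 1.00). Those windows were chosen on control peaks alone, which can raise the control-only share and lower the ratio. These flanks held too few peaks to enter that set.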
